A study of Mus musculus with 6 samples.

Results

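The genes described here are 35 genes of DNA replication and S phase, taken by symbol from the 24354 genes of an RNA sequencing table. All 35 were found in the table and all passed the filter on low values (at least 1 FPKM on average across the 6 libraries; FPKM counts sequenced fragments relative to transcript length and to the size of the library). They are the helicase genes Mcm2 to Mcm7; the origin licensing genes Orc1, Orc6, Cdc6 and Cdt1 with the licensing inhibitor Gmnn; the helicase activation genes Mcm10, Cdc45, Gins1 and Gins2; the sliding clamp Pcna and its loaders Rfc2 to Rfc5; the polymerase genes Pola1, Prim1, Pold1 and Pole; Lig1, Fen1 and Rpa2; the nucleotide supply genes Rrm1, Rrm2, Tyms and Tk1; and Ccne1, Ccne2, E2f1 and E2f2. The RNA came from basal epidermal cells of mouse embryos (E18.5, strain label C57BL6), sorted by FACS for a high surface level of a6 integrin, the laminin receptor subunit of cells on the basement membrane. There were 3 wild-type (WT) libraries and 3 libraries of the genotype Pik3caH1047R/H1047R, called mutant below, in which both copies of Pik3ca encode an activated catalytic subunit of PI3K. The sources used here do not give the promoter or recombinase that controls the mutant allele, or whether each library came from a separate animal, so the p-values speak only of the spread among these libraries.

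DNA replication is prepared in G1, when the origin recognition complex, Cdc6 and Cdt1 load the ring-shaped helicase built from Mcm2 to Mcm7 onto origins. In S phase, Cdc45 and the GINS complex convert the loaded helicase to its active form, and geminin (Gmnn) binds Cdt1 so that origins are not loaded again. Cyclin E with CDK2 drives entry into S phase, and E2F transcription factors, freed from RB proteins, activate many of these genes. In the epidermis, division is largely confined to the basal layer, from which cells leave the cycle as they move up.

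The deposited values summed to between 656761 and 767148 FPKM in WT libraries and to between 538627 and 651769 FPKM in the mutants, and the number of reads behind them is unknown. Pik3ca itself had a mean of 9.04 ± 0.415 FPKM in WT libraries and of 6.65 ± 0.602 FPKM in the mutants (SD, n = 3 each), a level that does not show whether the allele is mutated. The basal keratins Krt5 and Krt14 were at 12028 ± 155 and 10194 ± 439.6 FPKM in WT libraries and at 11977 ± 919 and 8453 ± 819 FPKM in the mutants (SD, n = 3 each), so the defining basal keratins were abundant in both groups. The deposited intervals around these values had halfwidths of at least 231% (Krt5) and 159% (Krt14) of the value, so the levels are imprecise. Itga6, the integrin gene behind the sort, fell from 163 ± 7.55 to 123 ± 2.13 FPKM (SD, n = 3; limma adjusted p = 0.00146), a call that ended once all libraries had the same total FPKM (adjusted p = 0.546). Annotated exons of 13 of the 35 genes lie partly opposite exons of a gene on the other strand, by over 500 bases for Fen1, Gins2, Rfc2 and Ccne2, and reads of such pairs may not have been told apart. For 5 of the 35 the deposited locus is over 1.4 times as long as the annotated gene. These are Gins2 (9.39), Ccne2 (4.68), Tk1 (2.31), Lig1 (1.54) and Rfc4 (1.47).

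Among the replication genes, Cdt1, Orc1, Orc6, Cdc6, Cdc45, Pcna, Pold1 and Lig1 fell in the mutant libraries, and Ccne1, E2f2 and Fen1 rose. The changes were modest: the ratio of mean FPKM, mutant over WT, ran from 0.64 for Cdt1 to 1.71 for Ccne1. None of the helicase genes Mcm2 to Mcm7 passed the test, and neither did any of the 4 nucleotide supply genes. In all, 11 of 35 passed (31.4%), against 46.0% of all 11385 genes tested. Of these, 8 were lower (22.9%), against 22.8% of all genes tested, and 3 were higher (8.57%), against 23.2% of all genes tested (limma on log2(FPKM + 1), Benjamini-Hochberg adjusted p under 0.05 over all genes tested). The share that fell was at the background of the whole table, and the share that rose was below it. With each library scaled to the same total FPKM only Cdt1 of the 8 remained lower, 15 of the 35 were higher, and 86.5% of all calls in the table were higher, against 50.5% with the values as deposited. The median log2 fold change of the 35 was -0.12, beside 0.01 for all genes tested. The groups did not overlap for 11 of the 35 with mutant libraries lower, against 26.9% of all genes tested, and for 4 with mutant libraries higher, against 29.1%.

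**Figure D1:**
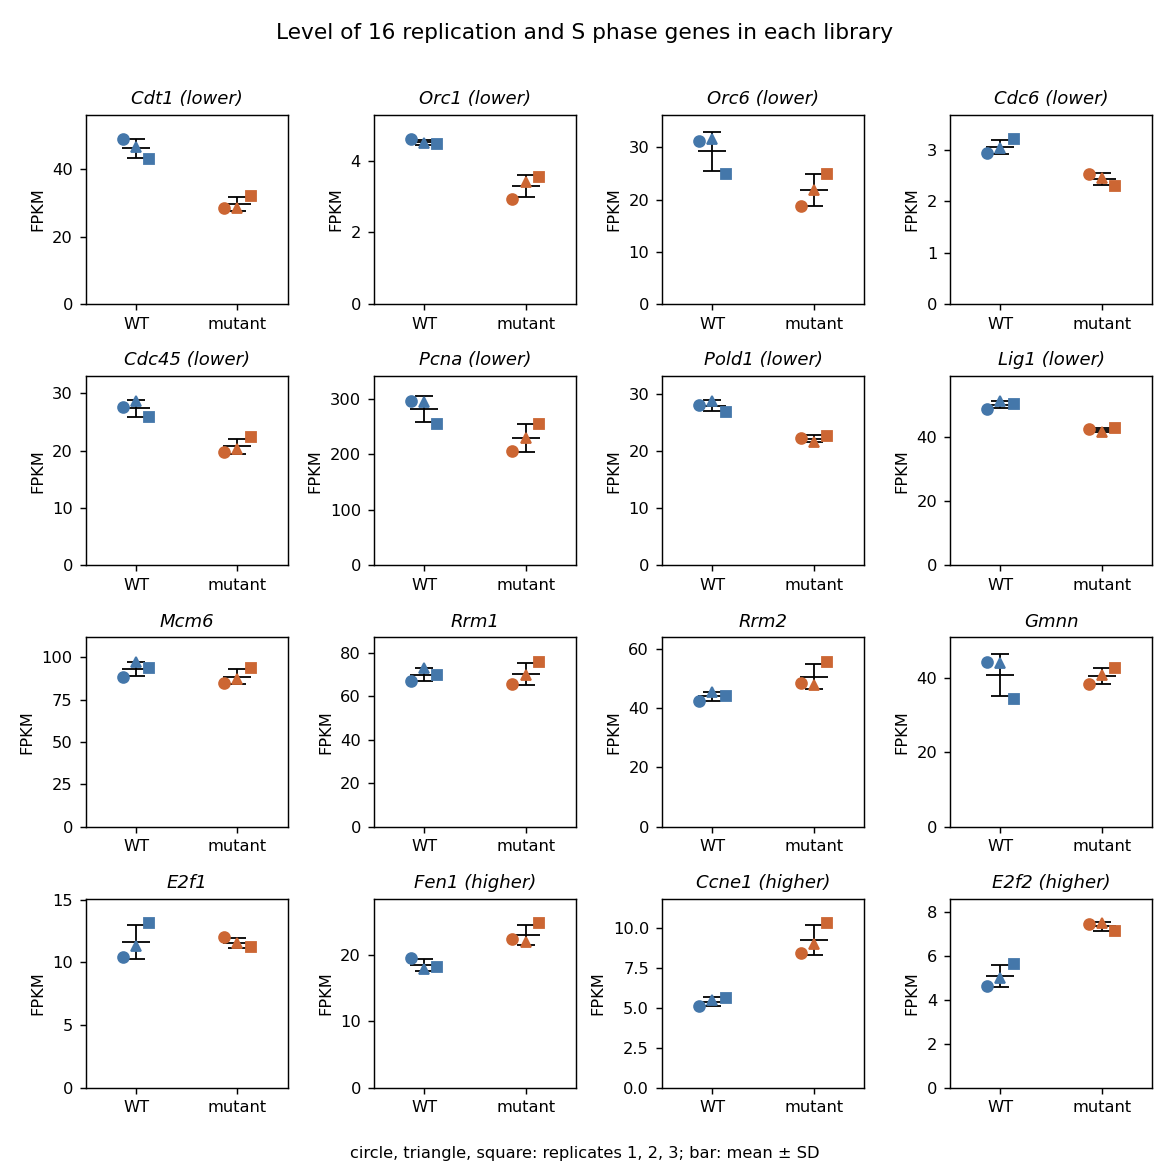
FPKM (vertical axes, from 0) of 16 of the genes in the 3 WT (blue) and 3 mutant (orange) libraries. Circles, triangles and squares are replicates 1, 2 and 3, and bars are the mean ± SD; the 8 genes that fell and the 3 that rose are marked in the titles, and Mcm6, Rrm1, Gmnn and E2f1 overlap between groups.

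The 6 subunits of the replicative helicase are assembled in equal numbers into 1 ring. Mcm6, the most abundant, was at 88.5, 97.2 and 93.6 FPKM in WT replicates 1 to 3 and at 84.8, 87.3 and 93.8 FPKM in mutant replicates 1 to 3. Mcm7 was at 66.6, 72.1 and 64.8 FPKM in WT and at 60.7, 63.7 and 70.7 FPKM in the mutants. For both genes the ranges of the groups overlapped, and mutant replicate 3 lay within the WT range. The other subunits had group means between 51.9 FPKM (Mcm3, mutant) and 69.2 FPKM (Mcm5, WT). Mcm3 was the lowest and Mcm6 the highest of the 6 in every library, with a ratio of highest to lowest between 1.66 and 1.77.

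The log2 fold changes of Mcm2 to Mcm7 lay between -0.12 (Mcm5) and -0.01 (Mcm2), and none passed (limma adjusted p = 0.309 to 0.864; 0 also at an unadjusted p under 0.05). The 95% intervals of the difference ran from -0.34 to 0.09 for Mcm5 and from -0.16 to 0.13 for Mcm2, so a fall of the size seen for Cdt1 lay outside them. These small negative values turned to positive ones, between 0.20 and 0.31, and passed when each library was scaled to the same total FPKM, a scaling that moved the median gene of the whole table up by 0.29. Relative to that median gene they were between -0.10 and 0.01. This is near the deposited values by construction, because the scaling multiplies all genes of a library by the same factor. With libraries weighted by their quality, Mcm3 (-0.15), Mcm5 (-0.23), Mcm6 (-0.13) and Mcm7 (-0.15) passed as lower, so the call for these subunits depended on the setting.

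Of the 5 origin licensing genes 4 fell, against 22.8% of all genes tested. With the same total FPKM 1 of the 5 was lower, against 7.4% of all genes tested, and 1, Gmnn, higher, against 47.2%. Other genes of the origin recognition complex, outside the 35, did not fall. Orc2 rose (log2 fold change 0.50), and Orc3 (0.09), Orc4 (-0.01) and Orc5 (0.12) did not pass. Cdt1 (chromosome 8, 122568015 to 122573130, plus strand), the factor that brings the helicase to the origin, was at 48.9, 46.7 and 43.1 FPKM in WT and at 28.6, 28.4 and 32.2 FPKM in the mutants. Every mutant value lay well below every WT value. This was the largest fall among the 35 genes, with a log2 difference of -0.62 (SE 0.0742, limma adjusted p = 0.000438) and a ratio of means of 0.64. Cdt1 passed as lower in all 22 alternatives, with values between -0.68 and -0.30.

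Orc1 (chromosome 4, 108579454 to 108614831, plus strand), the largest subunit of the origin recognition complex, was at 4.59, 4.50 and 4.46 FPKM in WT and at 2.94, 3.40 and 3.53 FPKM in the mutants. The groups did not overlap, and the log2 difference was -0.37 (SE 0.0791, limma adjusted p = 0.00693). Orc6 (chromosome 8, 85299632 to 85308279, plus strand), another subunit, was at 31.3, 31.5 and 24.9 FPKM in WT and at 18.7, 21.8 and 24.8 FPKM in the mutants. Its log2 fold change was -0.41 (SE 0.121, limma adjusted p = 0.0251), but WT replicate 3 and mutant replicate 3 were nearly equal. The call was lost in 8 of 22 alternatives, among them without WT replicate 1 (adjusted p = 0.0856), without WT replicate 2 (0.0921), without mutant replicate 1 (0.0764) and without mutant replicate 2 (0.0724).

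Cdc6 (chromosome 11, 98907889 to 98923942, plus strand), the ATPase that works with Cdt1, was low in both groups, at 2.94, 3.03 and 3.20 FPKM in WT and at 2.52, 2.46 and 2.30 FPKM in the mutants. All mutant values were lower (log2 fold change -0.24, SE 0.0771, limma adjusted p = 0.0327). That call was lost in 11 of 21 alternatives, among them without WT replicate 2 or 3 and without any 1 of the mutant libraries (adjusted p = 0.0603 to 0.0735).

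Gmnn, the inhibitor of Cdt1, did not follow the other licensing genes. It was at 44.2, 43.9 and 34.3 FPKM in WT and at 38.2, 40.8 and 42.6 FPKM in the mutants, with overlapping groups and a log2 difference of 0.00 (95% interval -0.24 to 0.23, limma adjusted p = 0.989). The ratio of Cdt1 to Gmnn within a library does not depend on how libraries were scaled. It was 1.10, 1.06 and 1.25 in WT and 0.75, 0.70 and 0.76 in mutant libraries, so every mutant ratio lay under every WT ratio. Which gene had more RNA within a library is not settled by these ratios. The deposited intervals had halfwidths of at least 31.5% of the value for Cdt1 and 32.5% for Gmnn. On the log2 scale the mean ratio was 0.19 ± 0.125 in WT libraries and -0.45 ± 0.065 in the mutants (SD, n = 3 each), a difference of -0.64 (two-sided exact permutation test, p = 0.1, the smallest that 3 against 3 allows).

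Of the genes that activate the loaded helicase, 1 of 4 fell (25%), about the share of all genes tested (22.8%). Cdc45 (chromosome 16, 18780447 to 18811972, minus strand), which joins the helicase and GINS at the fork, was at 27.7, 28.7 and 25.8 FPKM in WT and at 19.7, 20.2 and 22.3 FPKM in the mutants. The groups did not overlap, and the log2 fold change was -0.39 (SE 0.0699, limma adjusted p = 0.00313). Gins2, a GINS subunit, was at 33.3, 33.1 and 31.2 FPKM in WT and at 24.2, 28.0 and 33.1 FPKM in the mutants, overlapping only through mutant replicate 3 (limma adjusted p = 0.154). Gins2 passed as lower without that library (log2 fold change -0.31). Its value is uncertain, since 2758 bases of its annotated exons lie opposite exons of Gse1 and its deposited locus is 9.39 times as long as the annotated gene. Gins1 and Mcm10, a factor of fork assembly, had log2 fold changes of -0.15 and -0.16 and did not pass (adjusted p = 0.174 and adjusted p = 0.0909).

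The sliding clamp Pcna (chromosome 2, 132249286 to 132253180, minus strand), which tethers polymerases to DNA, had the highest level of the 35 genes. It was at 296, 294 and 255 FPKM in WT and at 205, 229 and 255 FPKM in the mutants. WT replicate 3 and mutant replicate 3 differed only beyond the digits shown, and the other libraries were apart. The log2 fold change was -0.30 (SE 0.102, limma adjusted p = 0.045). Pcna lost its call in 9 of 22 alternatives, among them without WT replicate 1, WT replicate 2, mutant replicate 1 or mutant replicate 2 (adjusted p = 0.115 to 0.143).

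Rfc2, a subunit of the loader that opens the clamp, was at 56.4, 55.7 and 49.0 FPKM in WT and at 43.3, 44.8 and 50.2 FPKM in the mutants (log2 fold change -0.21, limma adjusted p = 0.0605). Its groups overlapped through the replicates numbered 3. Rfc3, Rfc4 and Rfc5 had log2 fold changes of -0.04, 0.10 and -0.13 and none passed. The deposited interval around the Rfc4 values had a halfwidth of at least 101% of the value, against 31.5% to 32.1% for Cdt1, so Rfc4 was measured with little precision.

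Of the polymerase genes, Pold1 fell. Pold1 (chromosome 7, 44532744 to 44548815, minus strand), the catalytic subunit of the lagging strand polymerase delta, was at 28.1, 28.8 and 26.9 FPKM in WT and at 22.2, 21.5 and 22.7 FPKM in the mutants. The groups were apart, with little spread inside each (log2 fold change -0.32, SE 0.0556, limma adjusted p = 0.00259). Prim1, the primase subunit that makes the RNA primer, was at 43.4, 45.8 and 37.2 FPKM in WT and at 30.8, 35.5 and 40.9 FPKM in the mutants (log2 fold change -0.24, limma adjusted p = 0.125). Here mutant replicate 3 lay above WT replicate 3. Pola1, the catalytic subunit of the priming polymerase, and Pole, that of the leading strand polymerase, had every mutant value below every WT value but differed by only -0.17 and -0.15 on the log2 scale and did not pass (adjusted p = 0.063 and adjusted p = 0.0609).

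The enzymes that finish Okazaki fragments moved in opposite directions. Lig1 (chromosome 7, 13258967 to 13311427, plus strand), the ligase that seals them, was at 48.7, 51.1 and 50 FPKM in WT and at 42.2, 41.3 and 42.6 FPKM in the mutants (log2 fold change -0.24, SE 0.0527, limma adjusted p = 0.00698). Fen1 (chromosome 19, 10199132 to 10203943, minus strand), the flap nuclease that prepares them, was at 19.5, 17.8 and 18.1 FPKM in WT and at 22.4, 21.9 and 24.7 FPKM in the mutants (log2 fold change 0.30, SE 0.0672, limma adjusted p = 0.00788). Neither gene overlapped between groups, and Fen1 passed as higher in all 22 alternatives. The Fen1 value is uncertain, because 1909 of its 2422 exonic bases lie opposite exons of the antisense gene Gm10143, and whether strand was kept is unknown. The deposited locus of Lig1 is 1.54 times as long as the annotated gene. Rpa2, a subunit of the protein that coats single-stranded DNA, averaged 30.8 ± 1.89 FPKM in WT libraries and 28.5 ± 3.57 FPKM in the mutants (SD, n = 3 each) and did not pass (adjusted p = 0.358).

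None of the 4 nucleotide supply genes passed with limma, and at an unadjusted p under 0.05 only Rrm2 did. Rrm1, the large subunit of ribonucleotide reductase, was at 67.2, 72.9 and 69.9 FPKM in WT and at 65.5, 70.0 and 75.8 FPKM in the mutants (log2 fold change 0.01, 95% interval -0.16 to 0.17). Its small subunit Rrm2 was at 42.3, 45.4 and 44.0 FPKM in WT and at 48.3, 47.9 and 55.5 FPKM in the mutants. Every mutant value of Rrm2 was above every WT value, yet the log2 fold change of 0.20 just missed the threshold (limma adjusted p = 0.0546) and passed in 7 of 22 alternatives. Tk1, the thymidine salvage kinase, was at 63.7, 63.9 and 60.8 FPKM in WT and at 53.1, 51.8 and 62.9 FPKM in the mutants (limma adjusted p = 0.121), with only mutant replicate 3 inside the WT range. Tyms, which makes thymidylate, had a log2 difference of -0.10 (limma adjusted p = 0.395).

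The regulators of S phase entry held the largest rises. Ccne1 (chromosome 7, 38097984 to 38107490, minus strand), which encodes cyclin E1, was at 5.10, 5.48 and 5.64 FPKM in WT and at 8.45, 9.02 and 10.3 FPKM in the mutants. All mutant values were well above all WT values, with a log2 difference of 0.67 (SE 0.0816, limma adjusted p = 0.000468) and a ratio of means of 1.71. E2f2 (chromosome 4, 136172274 to 136196056, plus strand), an activating E2F, was at 4.62, 5.01 and 5.63 FPKM in WT and at 7.47, 7.48 and 7.12 FPKM in the mutants (log2 fold change 0.46, SE 0.0776, limma adjusted p = 0.00227). Ccne1 and E2f2 passed as higher in all 22 alternatives.

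Their close relatives E2f1 and Ccne2 did not pass. E2f1, another activating E2F, was at 10.4, 11.3 and 13.1 FPKM in WT and at 12, 11.5 and 11.2 FPKM in the mutants, with a log2 difference of 0.00 (95% interval -0.19 to 0.19). Ccne2, which encodes cyclin E2, averaged 1.93 ± 0.212 FPKM in WT libraries and 1.87 ± 0.227 FPKM in the mutants (SD, n = 3 each). Its precision was low, with a deposited interval of at least 101% of the value on either side, and 609 of its exonic bases lie opposite exons of Ints8. Whether Ccne1 differed from Ccne2, or E2f2 from E2f1, in its change was not tested.

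**Figure D2:**
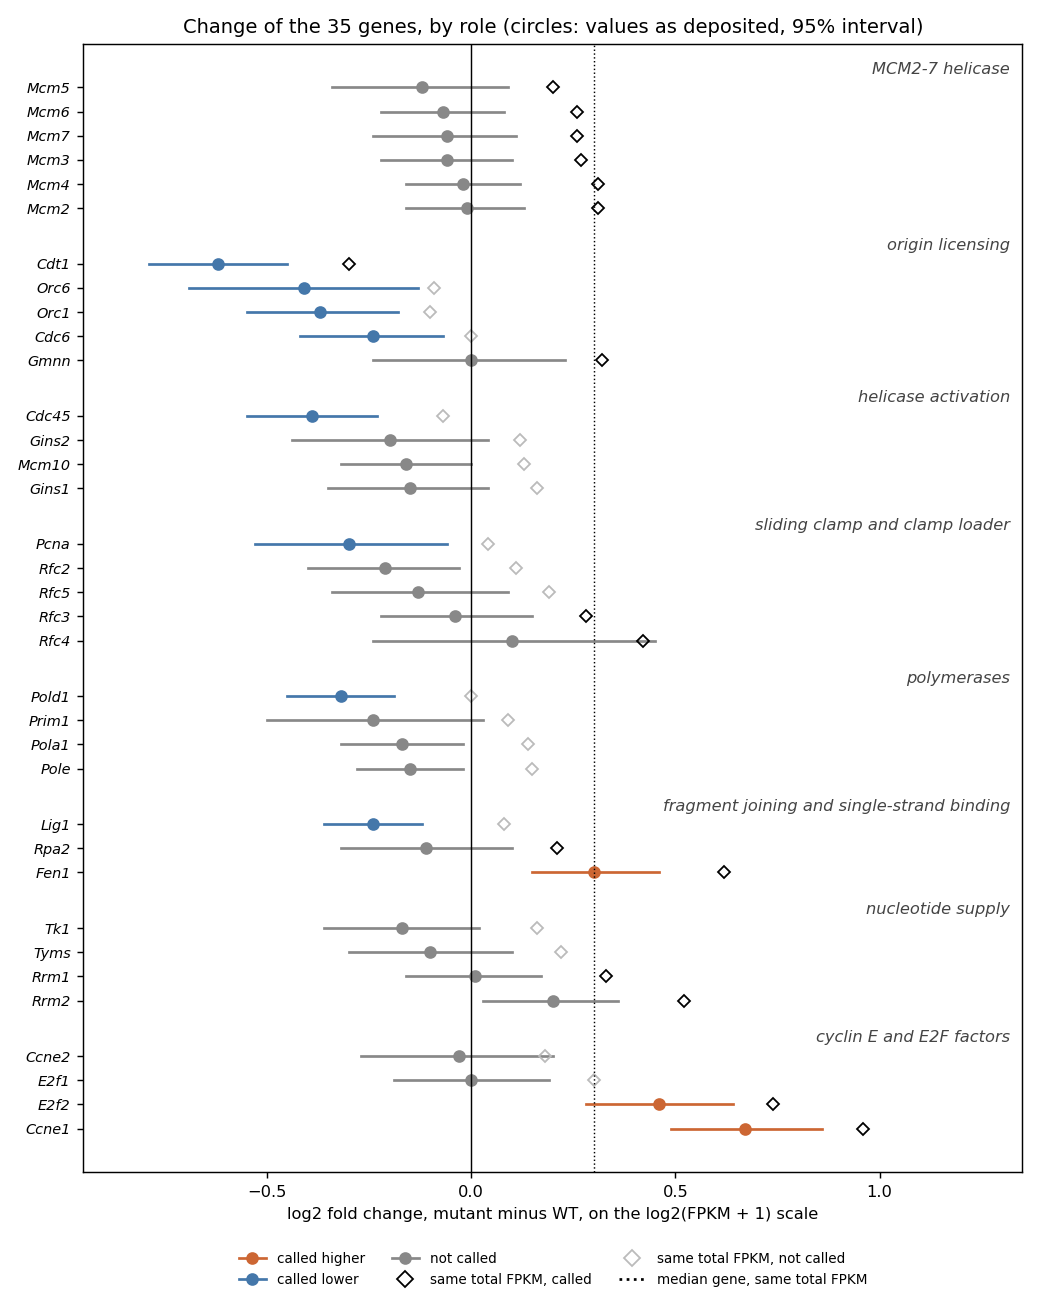
Log2 fold change, mutant minus WT (horizontal axis, log2(FPKM + 1) scale), of the 35 genes grouped by role; circles with 95% intervals are the values as deposited and diamonds those after scaling libraries to the same total FPKM. Cdt1 lies lowest at -0.62 and Ccne1 highest at 0.67, the Mcm2 to Mcm7 circles lie near 0, and the diamonds are moved to the right with the median gene (dotted line, 0.30).

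The promoters of the genes are shown because E2F and NF-Y factors are known to act on many replication genes. Windows of 300 bases, with 250 before the transcription start and 50 from it on, were matched by symbol for 28 of the 35 genes (RefSeq, GRCm38.p6). They were searched on both strands for the E2F words TTTCCCGC, TTTGGCGC, TTTCGCGC and TTTGCCGC, which can overlap each other on opposite strands, and for the NF-Y word CCAAT. An E2F word was in 11 of 28 windows (39.3%), against 2.26% of all 32851 promoter windows, and CCAAT was in 17 of 28 (60.7%), against 37.4%. An E2F word was in 4 of the 8 windows of genes that fell, in 1 of the 3 of genes that rose and in 6 of the 17 of genes that did not pass. Those with 2 or more E2F words were 5 genes that did not pass: Mcm3, Mcm5, Mcm6, Mcm7 and Rfc3. The transcription start of the window lay 466 bases inside the deposited locus for E2f1, counted without an E2F word. For Cdc6, counted with an E2F word, it lay 262 bases inside, so these windows need not hold the promoter. It lay 18208 bases inside for Lig1 and 13894 for Tk1, whose deposited loci are longer than the annotated genes. Printed here are the genes with the largest fall and the largest rises, Orc1 for its E2F word beside 2 CCAAT words, and Mcm6, which held the most E2F words and did not pass; capitals mark the words found:
Cdt1 (GRCm38.p6, chr8:122567765-122568064, plus strand): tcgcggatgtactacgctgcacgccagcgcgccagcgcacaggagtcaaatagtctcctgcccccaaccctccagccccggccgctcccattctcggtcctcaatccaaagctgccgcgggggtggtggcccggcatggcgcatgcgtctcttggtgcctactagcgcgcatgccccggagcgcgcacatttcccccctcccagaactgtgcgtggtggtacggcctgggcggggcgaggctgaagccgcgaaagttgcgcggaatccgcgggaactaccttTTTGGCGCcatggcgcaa
Orc1 (GRCm38.p6, chr4:108579204-108579503, plus strand): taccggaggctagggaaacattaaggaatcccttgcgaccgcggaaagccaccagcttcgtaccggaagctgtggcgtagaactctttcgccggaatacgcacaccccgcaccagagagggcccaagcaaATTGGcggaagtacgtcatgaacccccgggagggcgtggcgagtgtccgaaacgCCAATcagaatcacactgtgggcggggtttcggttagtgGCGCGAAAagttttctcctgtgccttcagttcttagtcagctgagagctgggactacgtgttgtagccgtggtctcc
Mcm6 (GRCm38.p6, chr1:128359656-128359955, minus strand): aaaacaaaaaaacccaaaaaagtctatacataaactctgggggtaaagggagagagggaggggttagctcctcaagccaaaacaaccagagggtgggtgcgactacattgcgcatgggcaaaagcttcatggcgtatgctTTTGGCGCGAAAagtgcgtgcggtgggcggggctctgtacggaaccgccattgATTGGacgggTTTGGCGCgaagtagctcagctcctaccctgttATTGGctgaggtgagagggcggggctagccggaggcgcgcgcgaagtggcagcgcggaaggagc
Ccne1 (GRCm38.p6, chr7:38107441-38107740, minus strand): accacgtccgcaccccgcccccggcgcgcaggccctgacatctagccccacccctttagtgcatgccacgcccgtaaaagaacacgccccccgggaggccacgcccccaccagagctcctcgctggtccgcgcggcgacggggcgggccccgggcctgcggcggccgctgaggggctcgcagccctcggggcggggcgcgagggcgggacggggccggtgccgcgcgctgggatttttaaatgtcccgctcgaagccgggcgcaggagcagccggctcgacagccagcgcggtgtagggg
E2f2 (GRCm38.p6, chr4:136172024-136172323, plus strand): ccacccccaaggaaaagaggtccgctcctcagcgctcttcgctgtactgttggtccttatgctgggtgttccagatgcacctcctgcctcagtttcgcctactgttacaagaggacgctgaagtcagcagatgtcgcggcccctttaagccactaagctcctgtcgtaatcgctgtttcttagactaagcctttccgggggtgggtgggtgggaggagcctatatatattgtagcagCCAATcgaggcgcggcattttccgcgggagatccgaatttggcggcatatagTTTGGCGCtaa
In the Cdt1 window the E2F word begins at base 33 of the transcript, and in the E2f2 window at base 40, with a CCAAT word at -13 (negative positions lie before the start). In the Orc1 window it lies at -27, with CCAAT words at -120 and -66, and in the Mcm6 window E2F words lie at -110, -106 and -47 and CCAAT words at -57 and -14. A match is a description of the sequence and not a site shown to be bound. The Ccne1 window held neither word exactly, which says only that these letters are not in it.

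How the libraries were scaled set the direction of many of these values. The 110 genes averaging 1000 FPKM or more made up between 46.0% and 51.6% of the summed FPKM in WT libraries. In the mutants they made up between 40.6% and 48.2%. The 15 of 35 genes that were higher with the same total (42.9%) stand against 47.2% of all genes tested, and the 1 lower gene, Cdt1, against 7.4%. Cdt1 was then at -0.30 (limma adjusted p = 0.0124), Orc1 at -0.10 (adjusted p = 0.485) and Cdc45 at -0.07 (adjusted p = 0.51). Orc6 was at -0.09, Cdc6 and Pold1 were at 0.00, and Pcna (0.04) and Lig1 (0.08) turned sign without passing, while Ccne1, E2f2 and Fen1 were at 0.96, 0.74 and 0.62. Relative to the median gene under that scaling Cdt1 was at -0.60, Orc1 at -0.41, Cdc45 at -0.37 and Ccne1 at 0.66. These values lie near the deposited ones by construction, because the scaling multiplies all genes of a library by the same factor. They are therefore no check of the deposited values. Libraries were also scaled to the mean log2 level of Mcm2 to Mcm7, a scaling added once the data were known. By construction it centres those 6 of the 35 genes on no change (-0.07 to 0.04), so the counts here are partly set by it. Cdt1 (-0.56), Orc6 (-0.36), Cdc45 (-0.33), Orc1 (-0.32), Pold1 (-0.26), Pcna (-0.24) and Lig1 (-0.19) were then lower (7 of 35, against 17.2% of all genes tested). Ccne1 (0.72), E2f2 (0.51), Fen1 (0.36) and Rrm2 (0.26) were higher (4 of 35, against 24.5%). Cdc6 was not called there (adjusted p = 0.154).

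Within each group the levels of many of the 35 genes followed the library. Their summed level as deposited was 1469, 1506 and 1367 FPKM in WT replicates 1 to 3 and 1225, 1286 and 1430.5 FPKM in mutant replicates 1 to 3. Of these sums, mutant replicate 3 lay inside the WT range and the other mutant libraries below it. As a share of all FPKM in the library the order turned. That share was 0.195%, 0.196% and 0.208% in WT and 0.226%, 0.239% and 0.219% in the mutants. Every mutant share was above every WT share, and mutant replicate 3 was the lowest mutant. As a share of the FPKM in genes averaging under 1000 FPKM, the groups overlapped. That share was 0.393%, 0.405% and 0.385% in WT and 0.384%, 0.402% and 0.424% in the mutants, with mutant replicate 3 the highest. The separation of the groups thus depended on counting the most abundant genes in the total. With the values as deposited, mutant replicate 3 was the highest of the mutant libraries for 30 of the 35 genes (85.7%), against 42.8% of all genes tested. WT replicate 3 was the lowest of the WT libraries for 22 (62.9%), against 39.3%. Without mutant replicate 3, 13 of the 35 were lower (37.1%), against 22.8% of all genes tested, and 3 higher, against 21.9%. Gins2, Prim1, Rfc2, Rfc5, Rpa2 and Tk1 were then called lower, whereas Cdc6 was not. With libraries weighted by their quality 23 of the 35 were lower and 3 higher, against 31.1% of all genes tested in either direction.

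Libraries also differed in sex-linked genes, whose part in the values above was not tested beyond the fit given here. Xist, expressed from the inactive X chromosome of females, was at 71.1 FPKM in mutant replicate 3 and at 0.733 and 0.0542 FPKM in the other mutant libraries, and the Y-linked Ddx3y was at 0.209 FPKM there and at 19.8 and 22.7 FPKM in the others. WT libraries held Ddx3y at 15.8 to 20.9 FPKM and Xist at 30.5, 24.2 and 0.53 FPKM. WT replicates 1 and 2 thus held RNA of both genes, whereas every other library had either Xist or Ddx3y under 1 FPKM. Whether these WT libraries pooled embryos of both sexes was not tested. With Xist as a covariate, 12 of the 35 genes were lower, against 26.4% of all genes tested, and 4 higher, against 27.4%, and all 11 genes named above as changed passed in the same direction.

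**Figure D3:**
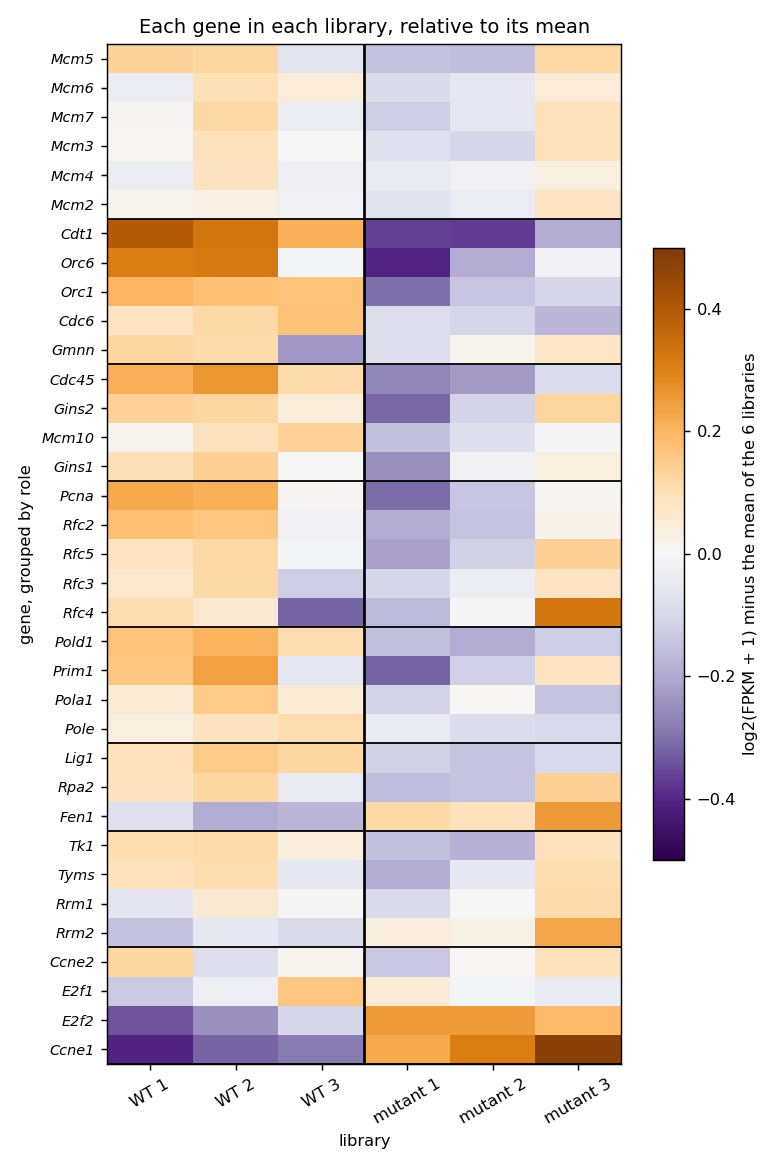
Log2(FPKM + 1) of each of the 35 genes (rows, by role) in each library (columns), minus its mean over the 6 libraries; purple is below the mean and orange above. Cdt1, Orc1 and Cdc45 are orange in all WT columns and purple in all mutant columns, Ccne1, E2f2 and Fen1 the reverse, and many other rows in mutant replicate 3 resemble the WT columns.

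Other genes of the replication machinery, from a list of 39, had 5 members that rose (12.8%, against 23.2% of all genes tested) and 6 that fell (15.4%, against 22.8%), with a median log2 fold change of 0.03. With the same total FPKM 23 were higher (59.0%, against 47.2% of all genes tested) and 1 lower (2.56%, against 7.4%). With the same total of genes under 1000 FPKM 17 were higher (43.6%, against 40.6%) and 4 lower (10.3%, against 13.7%). Top1, the topoisomerase that relieves twisting ahead of the fork, fell from 104 ± 6.04 to 68.7 ± 0.805 FPKM (SD, n = 3; limma adjusted p = 0.00026). Prim2, the partner of Prim1, fell from 25 ± 1.18 to 18.6 ± 1.34 FPKM, and the polymerase epsilon subunit Pole4 fell from 34.5 ± 2.65 to 24.6 ± 2.07 FPKM (SD, n = 3). Under scaling to the same total the calls of Prim2 (adjusted p = 0.4) and Pole4 (adjusted p = 0.165) ended. Orc2, a subunit of the same complex as Orc1 and Orc6, rose from 9.23 ± 0.819 to 13.5 ± 0.916 FPKM (SD, n = 3; log2 fold change 0.50, limma adjusted p = 0.00178), opposite in direction to Orc1 and Orc6 as deposited; with the same total FPKM Orc2 was at 0.81 and the calls of Orc1 and Orc6 ended.

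Of 13 genes of S phase chromatin assembly and maintenance, 5 rose and 0 fell (limma; 0 also at an unadjusted p under 0.05), so 38.5% rose, against 23.2% of all genes tested. That excess was smaller with median-centred libraries, where 3 rose (23.1%, against 20.3% of all genes tested). Usp1, a deubiquitinase that acts on Pcna, rose from 21.8 ± 1.42 to 29.3 ± 2.35 FPKM (SD, n = 3; limma adjusted p = 0.00362). Cdca7, the uracil glycosylase Ung and the histone chaperone Asf1b rose by 0.30, 0.22 and 0.28 on the log2 scale. Of these, Ung and Asf1b lost the call in 5 and 8 of 22 alternatives.

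Of 24 further genes of nucleotide supply, 8 rose (33.3%, against 23.2% of all genes tested) and 6 fell (25%, against 22.8%). With the same total FPKM 15 were higher (62.5%, against 47.2% of all genes tested) and 3 lower (12.5%, against 7.4%). The largest change was in Ctps, which makes CTP and fell from 118 ± 6.44 to 36.4 ± 4.49 FPKM (SD, n = 3; log2 fold change -1.67, limma adjusted p = 1.25e-05). Paics, an enzyme of purine synthesis, fell by 0.61 and Shmt1, which supplies folate carbon, fell by 0.36 on the log2 scale, the latter not with the same total FPKM (adjusted p = 0.745). The deoxycytidine kinase Dck rose from 13.0 ± 0.557 to 17.3 ± 0.786 FPKM (SD, n = 3; limma adjusted p = 0.00187).

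Among 20 genes of the E2F and RB families and of CDK2 control, 6 rose (30%, against 23.2% of all genes tested) and 2 fell (10%, against 22.8%). With the same total FPKM 12 were higher (60%, against 47.2% of all genes tested). None was lower there, against 7.4% (limma, 0 also at an unadjusted p under 0.05). Rb1, the repressor of E2F factors, rose from 6.91 ± 0.413 to 10.6 ± 1.03 FPKM (SD, n = 3; log2 fold change 0.55, limma adjusted p = 0.00121). Ccna2, the cyclin that follows cyclin E, rose from 39.3 ± 1.62 to 53.2 ± 4.09 FPKM, and Skp2, which targets Cdt1 and the inhibitor p27 for degradation, rose from 5.79 ± 0.266 to 7.47 ± 0.350 FPKM (SD, n = 3). Tfdp2, an E2F partner, fell by 0.36 on the log2 scale (call ended with the same total, adjusted p = 0.721). Of 9 G1 cyclin, kinase and inhibitor genes tested, the inhibitors Cdkn2c (0.56) and Cdkn2b (0.45) rose, and Ccnd3 (-0.54) and Cdk6 (-0.23) fell, Cdk6 with a value of 0.07 under the same total; 22.2% of the list rose and 22.2% fell, near the shares of all genes tested.

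Of 40 genes of G2 and mitosis 18 rose (45%), against 23.2% of all genes tested, and 1, Anln, fell, a direction that turned with the same total FPKM (0.04). The median of their log2 fold changes was 0.17, beside -0.12 for the 35 replication genes. The difference between the 2 lists was not tested. Plk1, a mitotic kinase, rose from 21.5 ± 0.870 to 34.5 ± 2.79 FPKM (SD, n = 3; log2 fold change 0.65, limma adjusted p = 0.000284), and cyclin B1 (Ccnb1) rose from 45.9 ± 3.06 to 64.1 ± 4.09 FPKM. Ccnf and Cenpf rose by 0.56 and 0.60 on the log2 scale. The median of the G2 and mitosis list was 0.49 with the same total, where that of the 35 genes was 0.19, and 0.10 without mutant replicate 3, where that of the 35 was -0.17.

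**Figure D4:**
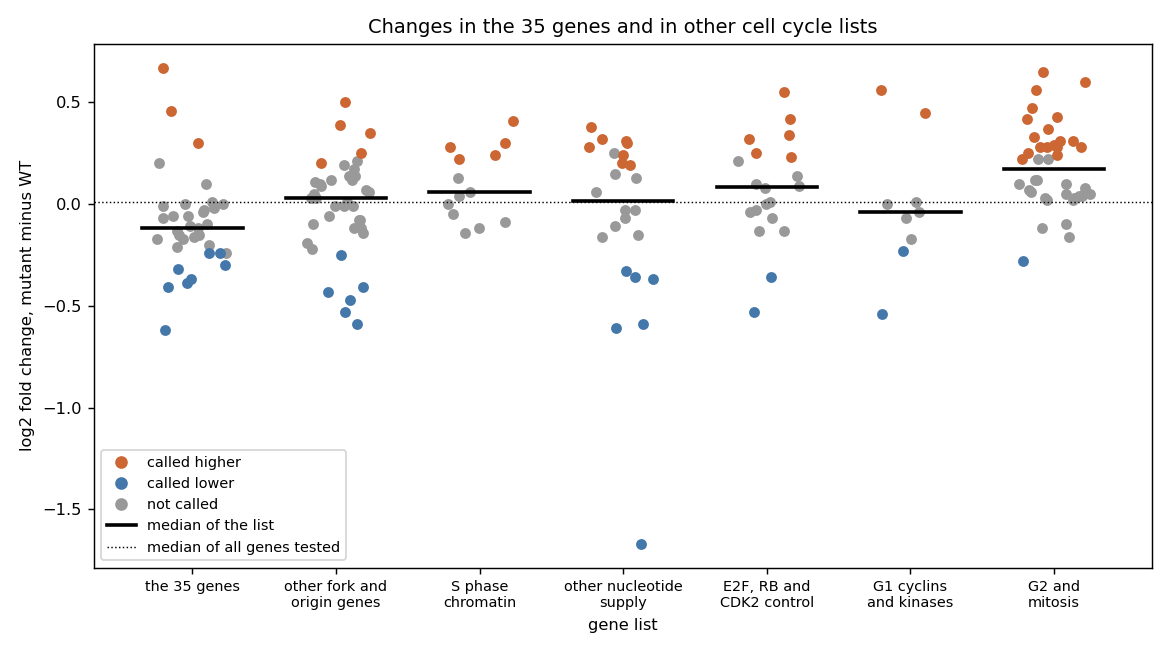
Log2 fold change, mutant minus WT (vertical axis), of the 35 genes and of the tested genes of 6 other lists (horizontal axis; each point 1 gene, black bars the median). The median lies at -0.12 for the 35 genes and at 0.17 for G2 and mitosis, and most called genes of G2 and mitosis are higher (orange).

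Markers of cell layers and of other cell types moved with the groups, beside all changes above; their part in these changes was not tested. In bulk samples, fewer cells of a type and less RNA per cell cannot be told apart. Suprabasal markers summed to between 3861 and 4663 FPKM in WT and between 11751 and 14347 FPKM in the mutants, a sum carried by the keratins Krt1, at 1489 ± 175 and 5729.7 ± 666 FPKM, and Krt10, at 1704 ± 222 and 5899 ± 699 FPKM (SD, n = 3 each). The deposited intervals around Krt1 and Krt10 were also wide, with halfwidths of at least 86.8% and 85.3% of the value. Of the 8 suprabasal markers 4 rose, namely Krt1, Krt10, Dsg1a and Dsc1 (50%, against 23.2% of all genes tested). The late marker Lor fell from 76.6 ± 24.4 to 31.6 ± 15.3 FPKM (SD, n = 3, limma adjusted p = 0.0155), or 12.5%, against 22.8%. Krtdap (0.14), Sbsn (-0.16) and Ivl (-0.23) did not pass. With the same total FPKM Krtdap (0.47) was also higher, so 5 of 8 were (62.5%, against 47.2%). Lor alone was lower there (12.5%, against 7.4%). Basal markers summed to between 25924 and 26262 FPKM in WT and between 23766 and 27179 FPKM in the mutants, a sum set by Krt5 and Krt14. Of these 8 genes 4 fell (50%, against 22.8% of all genes tested) and 1, Krt15 (0.49), rose (12.5%, against 23.2%). Those that fell were the adhesion genes Dst (from 254 ± 27.6 to 126 ± 9.13 FPKM, SD, n = 3), Itgb4 (-0.75), Itga6 (-0.41) and Col17a1 (-0.36). Krt5 (-0.01), Krt14 (-0.27) and Trp63 (0.06) did not pass, and the median log2 fold change of the list was -0.32. Dst and Itgb4 passed as lower in all 22 alternatives, whereas with the same total FPKM Itga6 and Col17a1 did not pass. Krt5 (0.32), Krt15 (0.83) and Trp63 (0.39) were then higher (3 of 8, 37.5%, against 47.2% of all genes tested). Under that scaling 2 of the 8 were lower (25%, against 7.4%), and the median of the list was 0.02.

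Markers of other cell types were called lower or not at all. Of all genes tested, 22.8% were called lower as deposited and 7.4% with the same total FPKM. Dermal fibroblast markers (3 of 7 tested lower, 1 with the same total FPKM) summed to between 438 and 591 FPKM in WT and between 338 and 380 FPKM in the mutants. Erythroid markers (3 of 6 lower, 3 with the same total) summed to 231 to 313 and 90.2 to 157 FPKM, and muscle markers (2 of 3 lower, 2 with the same total) to 13.3 to 19.5 and 7.89 to 8.26 FPKM. Immune markers (3 of 3 lower) summed to 7.09 to 8.20 and 4.96 to 5.68 FPKM and melanocyte markers (2 of 3 lower) to 15.7 to 21.5 and 11.1 to 15.1 FPKM, and in both lists 0 were called by limma with the same total FPKM (0 also at an unadjusted p under 0.05). All 5 endothelial markers were under a mean of 1 FPKM, as was the pan-leukocyte gene Ptprc, and Cd207, which marks Langerhans cells, was listed at 0 in every library.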

How the data were processed

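The authors' deposited table held FPKM per gene and library with the bounds of an interval and a status, per the file headers. TopHat and Cufflinks are named in the submitters' processing notes, without versions; the sources used here do not give the scaling of libraries or whether strand was kept. The notes name mm9, yet 98.9% of 23315 symbols overlapped the gene of that name in GENCODE M21 (GRCm38), so positions, with 1 added to each start, are read as GRCm38.

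The 11385 genes that averaged 1 FPKM or more were tested with limma 3.58.1 in R 4.3.3 on log2(FPKM + 1), with a trend in the variance prior and Benjamini-Hochberg adjustment over all genes tested. This scale understates changes of low genes. The procedure was tested on simulated data. Python 3.11.15 was used for tables and figures. The Cdt1 to Gmnn ratio was compared with an exact permutation test. Replicate numbers are not stated to pair libraries. Per role, up to 4 genes past the threshold by smallest p, filled to 2 by abundance, have the value in every library; up to 4 per other list are named likewise. Other genes named or given in full (Rrm2, E2f1, Orc3, Orc4, Orc5, Anln, Krt5, Krt14, Trp63, Col17a1, Lor, Krtdap, Sbsn, Ivl, Ptprc, Cd207, Xist and Ddx3y) were chosen after their values were seen. The members and lists were chosen with earlier results of these data known. The 22 alternatives covered the pseudocount, filter, scaling, variance prior, weights, block, covariate, length and left-out libraries; 2 scalings were added after the data were seen.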

Additional observations from a re-analysis of the deposited data

How the results depend on the processing

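Ccne1, E2f2, Fen1 and Cdt1 kept direction and call in all 22 alternatives. As deposited, 2642 genes of the whole table were higher and 2592 lower; counts were 5375 and 842 with the same total FPKM, 4625 and 1562 with the same total of genes under 1000 FPKM (added after the data were seen), and 1554 and 1634 at a threshold of 0.01. Of the 35 genes, 15 were higher and 1 lower with the same total, against 47.2% and 7.4% of all genes tested. With the same total of genes under 1000 FPKM 7 were higher (20%) and 4 lower (11.4%), against 40.6% and 13.7%. The 8 lower genes became 5 of 35 at a threshold of 0.01, against 1634 of 11385 genes tested. They became 5 with no filter on low values, against 14.1% of all genes tested, and 4 with the replicate number as a block, against 16.8%. With library weights 23 were lower (65.7%, against 31.1% of all genes tested). Leaving out each library gave between 5 and 13 lower (5 without WT replicate 2, mutant replicate 1 or mutant replicate 2; 13 without mutant replicate 3) and 3 higher each time. Over the whole table, leaving out a library gave 1927 to 2550 higher (16.9% to 22.4%) and 1939 to 2591 lower (17.0% to 22.8%). The Cdt1 to Gmnn difference stayed between -0.68 and -0.57.

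With the same total FPKM, 23 of the 35 values turned positive. Of these, 11 passed in that or the deposited scaling, namely Mcm2 (0.31), Mcm3 (0.27), Mcm4 (0.31), Mcm5 (0.20), Mcm6 (0.26), Mcm7 (0.26), Gmnn (0.32), Pcna (0.04), Rfc3 (0.28), Lig1 (0.08) and Rpa2 (0.21), and the other 12, between 0.09 and 0.30, passed in neither. Cdk6 turned likewise (0.07). With the same total of genes under 1000 FPKM 15 turned, of which Mcm2 and Mcm4, at 0.15, passed. With quantile normalization 8 turned, among them Pcna (0.09), and the fibroblast marker Dcn was at 0.02. The cause was not tested. The correlation of deviations between same-numbered libraries was 0.127, 0.122 and -0.007, so the numbers are not taken to pair libraries; libraries numbered 1 and 2 correlated best with their own number and those numbered 3 did not. The block left 1889 genes higher and 1909 lower, and 2 of the 13 S phase chromatin genes higher (15.4%, against 16.6% of all genes).

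Read depth is unknown, and the deposited intervals around single values of these genes had halfwidths of at least 31.5%.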
